A study of Mus musculus with 6 samples.

Results

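The genes described here are 10 regulators of the G1 phase of the cell cycle: the D cyclins Ccnd1, Ccnd2 and Ccnd3, their kinases Cdk4 and Cdk6, the Rb family Rb1, Rbl1 and Rbl2, the transcription factor E2f1 and the inhibitor Cdkn1a. They were chosen by symbol, most of them as classic targets of miR-17, and all 10 were found among the 35510 genes of the table. All 10 also had a mean normalised count of at least 10, as did 22479 genes in all, which were the genes tested. The libraries come from brain cells of wild-type Swiss mice (RjOrl:SWISS), labelled as cortical neurons, taken at P0 after electroporation in utero at E15.5. One group received a control plasmid. The other received a miR-17-5p sponge plasmid, whose RNA offers the microRNA decoy sites in place of its own targets. Each group had 3 libraries, each made from 50 ng of RNA from about 100000 cells of about 10 brains, so every library is a pool of animals. The column names carry the mark FACS, and the promoter of the plasmids is not given in the sources used here. Nothing in the labels says that the libraries of a group came from separate litters or sessions, so the p-values measure the spread between these libraries.

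D cyclins bind and activate CDK4 and CDK6 when growth signals reach a cell. The active kinases phosphorylate Rb1 and its relatives Rbl1 (p107) and Rbl2 (p130), which then release E2F transcription factors, and these switch on the genes of DNA replication. Cdkn1a (p21) binds cyclin and CDK complexes and can hold a cell in G1. In the embryonic cortex Ccnd1 and Ccnd2 are known from dividing progenitors, and neurons leave the cycle for good. The miR-17 family is known for repressing both brakes and accelerators of this step, among them Cdkn1a, Rb family members, Ccnd1 and E2f1.

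The sequences below show miR-17-5p, for which the sponge plasmid is named, with related microRNAs, and where miR-17-5p could pair with these genes. The mature forms, from RefSeq on GRCm38.p6, are grouped by their shared seed, bases 2 to 8, in capitals. The first and second are encoded close together on chromosome 14, the next pair on chromosome 5 and the last pair on chromosome X. A seventh mature form in RefSeq, miR-6383, has the same seed and is only named here.
miR-17-5p: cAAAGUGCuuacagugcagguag
miR-20a-5p: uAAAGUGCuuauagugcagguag
miR-93-5p: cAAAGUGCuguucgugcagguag
miR-106b-5p: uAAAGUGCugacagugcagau
miR-106a-5p: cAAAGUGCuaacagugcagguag
miR-20b-5p: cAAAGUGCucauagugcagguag

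A transcript pairs with this seed through the letters GCACTTT, the 7-base site, or GCACTTTA, the 8-base site. Both were sought in the transcript's own strand in 1 annotated 3′ UTR per gene, the longest one in GENCODE M21 on GRCm38, together with CACTTTA, a site of the same length set 1 base further along. Of the 10 genes, 7 held a match and 3 (Ccnd3, Cdk4 and Cdk6) held none of these letters in that window. Among the 15171 tested genes with such a UTR, 14.1% held a 7-base or 8-base site and 21.3% held any of the 3 words. UTR length differed too, with a median of 2517 bases for genes holding a 7-base or 8-base site and 1155 bases for all of them. The 10 genes were partly chosen as targets, so their higher share describes the choice. The 9 sites are printed 5′ to 3′ on the transcript strand, with the match in capitals.
Ccnd1, chr7:144931671-144931696, minus strand: cattccatttcaaaGCACTTTtggtc
Ccnd2, chr6:127129335-127129360, minus strand: attccattagaaaaGCACTTTgaaaa
Rb1, chr14:73196356-73196381, minus strand: agtacaacccaagtGCACTTTttaat
Rbl1, chr2:157147472-157147497, minus strand: tttgcctgatcaaaGCACTTTtggat
Rbl2 first, chr8:91123137-91123162, plus strand: ctgtgtaattggtgGCACTTTAtggc
Rbl2 second, chr8:91123198-91123223, plus strand: gtatatttatgatgGCACTTTctatg
E2f1 first, chr2:154560207-154560232, minus strand: ggtgggctctaactGCACTTTtggtg
E2f1 second, chr2:154559692-154559717, minus strand: ccaccctccagtctGCACTTTgattt
Cdkn1a, chr17:29099815-29099840, plus strand: ctcagacctgaataGCACTTTggaaa
Only the first Rbl2 site was of the 8-base kind, and it lay 705 bases into a UTR of 1398 bases. The site of Rbl1 was the nearest to a stop codon, 23 bases into a UTR of 1613 bases. The site of Ccnd2 lay 989 bases into a UTR of 5173 bases, and Cdk6, with 10217 bases the longest UTR of the 10, had none.

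None of the 10 genes differed between sponge and control beyond the spread of the libraries. With limma on log2(normalised count + 1), 0 of 10 were called at an adjusted p under 0.05, where 0% of all tested genes were called, and 0 of 10 had an unadjusted p under 0.05, which 2.89% of all tested genes had (1.58% with the sponge higher and 1.31% with it lower). The estimates were small in both directions, 5 above 0 and 5 below, from −0.16 for E2f1 to 0.28 for Ccnd1 on the log2 scale. Their median was 0.0083, and that of all genes tested was 0.0061. The sponge and control values overlapped in all 10 genes, while 11.2% of tested genes had groups that did not overlap. For 8 of the 10 genes the 95% interval of the fold change lay within 1.5-fold in either direction, the exceptions being Rbl1 and Cdkn1a. The upper bounds of Ccnd1 (1.49-fold) and Rbl2 (1.47-fold) lay just under that limit, so the count depends on the limit chosen.

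**Figure D1:**
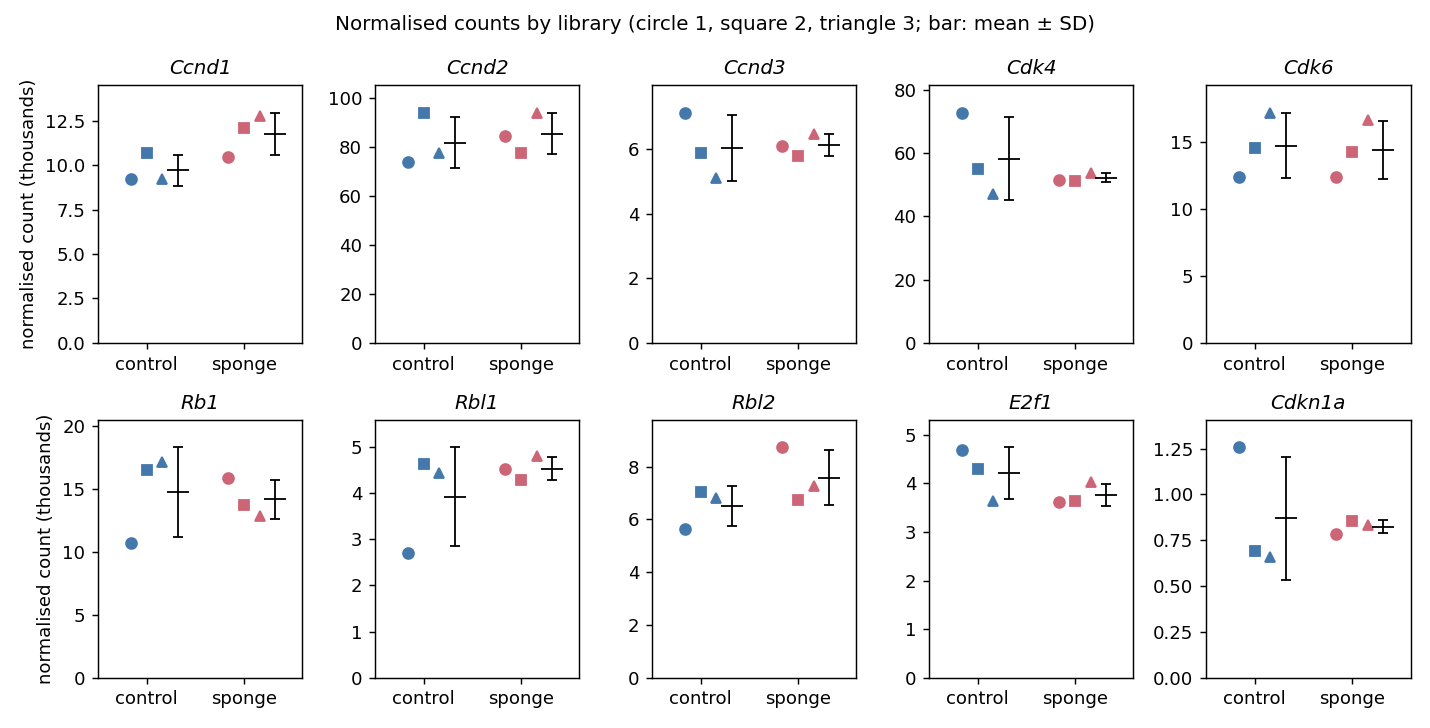
Normalised counts (linear axes from 0, scaled as labelled) of the 10 genes in the 3 control and 3 sponge libraries, with the mean and SD of each group as a bar. The groups overlap in every panel, and control library 1 is the highest of the 6 libraries in 4 panels and the lowest in 4.

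Depth was alike, with whole steps of the deposited values, taken as reads, that summed to between 115445910 and 138254412 per library, but control library 1 stood apart. Its correlation with the other libraries across genes was 0.942 to 0.954, and that of the other pairs 0.974 to 0.986. It was the highest library for Ccnd3, Cdk4, E2f1 and Cdkn1a and the lowest for Ccnd2, Rb1, Rbl1 and Rbl2. Longer genes lay lower in it: over 22428 genes, its deviation from the other 5 libraries and the length of the longest transcript had a Spearman's rho of −0.22, and over the 10 genes a rho of −0.70. With the length of merged exons in its place, rho was −0.19 over all these genes and −0.47 over the 10. The shortest transcripts of the set, Cdk4 (2053 bases) and Cdkn1a (2080 bases), were 0.50 and 0.72 above the other libraries on the log2 scale, and Rbl1 (4862 bases) was 0.75 below. The markers of erythroid cells also summed to 32171 normalised counts in control library 1 and to 1392 to 4187 in the others. The part of length or of other cells in the results was not tested, and the fold changes are therefore also given without control library 1.

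**Figure D2:**
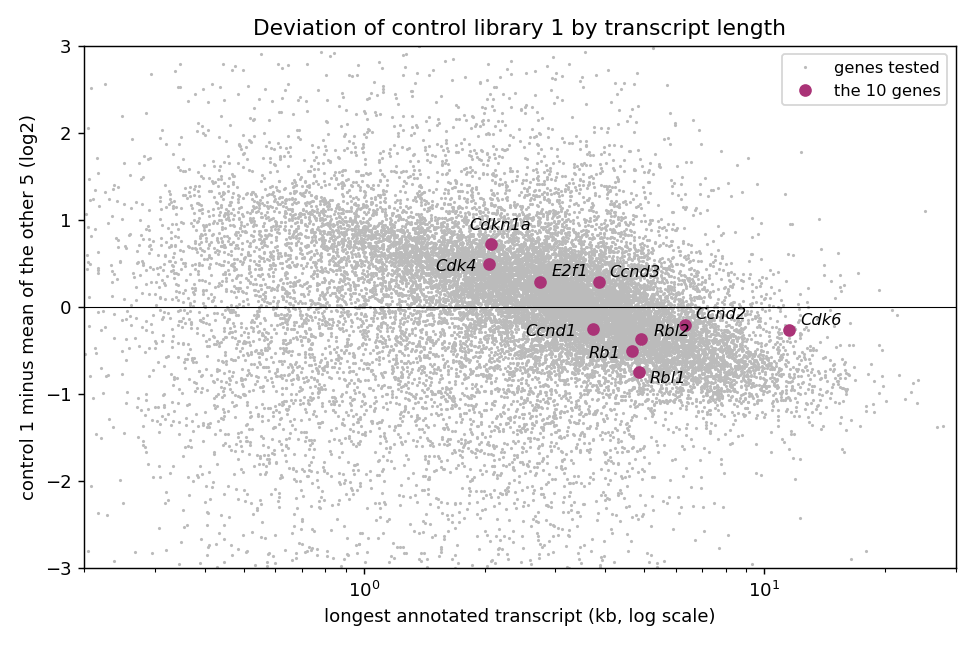
Each grey point is a tested gene, placed by the length of its longest annotated transcript (kilobases, log axis) and by its log2 level in control library 1 minus the mean of the other 5 libraries, with 20844 genes inside the axes and 1584 outside. The 10 genes, drawn in colour, run from 0.72 for Cdkn1a to −0.75 for Rbl1.

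Among the D cyclins, Ccnd1 had the largest estimate of the 10 genes and Ccnd2 and Ccnd3 had estimates near 0. Ccnd1 (ENSMUSG00000070348, chromosome 7, 144929931 to 144939925, minus strand) measured 9231, 10688 and 9191 normalised counts in control libraries 1 to 3. It measured 10457, 12102 and 12753 in sponge libraries 1 to 3. Sponge libraries 2 and 3 lay above all controls, and sponge library 1 lay just below control library 2. The means were 9703 ± 853 and 11771 ± 1183 (SD, n = 3 each). The log2 fold change of Ccnd1 was 0.28 ± 0.13 (SE) with a 95% interval from −0.0177 to 0.57 (limma, adjusted p = 0.925). An exact two-sided permutation test over the 6 libraries gave p = 0.2, where 0.1 is the smallest value it can give with 3 against 3. Without control library 1 the estimate was 0.24 ± 0.10 with an interval above 0 (limma, adjusted p = 0.658). Ccnd1 and Rb1 were then the 2 of the 10 genes with an unadjusted p under 0.05, which 7.54% of all tested genes had in that fit (4% with the sponge higher and 3.54% with it lower). At the adjusted threshold that fit called 0 of the 10 genes and 0.00893% of all tested genes.

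Ccnd2 (ENSMUSG00000000184, chromosome 6, 127125162 to 127152193, minus strand), the D cyclin known from intermediate progenitors of the cortex, was the most abundant of the 3. Its normalised counts were 73838, 93544 and 77397 in control libraries 1 to 3 and 84463, 77438 and 93866 in sponge libraries 1 to 3. The highest control and the highest sponge library were nearly equal, and the groups overlapped over most of their range. The log2 fold change was 0.07 ± 0.14 (SE; 95% interval −0.27 to 0.40; limma adjusted p = 0.943), and −0.0016 ± 0.11 without control library 1. Ccnd3 (ENSMUSG00000034165, chromosome 17, 47505051 to 47599691, plus strand) measured 7131, 5869 and 5108 in the controls and 6100, 5790 and 6467 in the sponge libraries. All 3 sponge values fell inside the range of the controls, and the log2 fold change was 0.03 ± 0.15 (95% interval −0.31 to 0.37; adjusted p = 0.973), or 0.16 ± 0.09 without control library 1. The pseudogene Ccnd3-ps is counted separately, at 8.41 to 36.0 normalised counts per library, so few reads were assigned to it.

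Cdk4 and Cdk6, the catalytic partners of the D cyclins, showed no difference between the groups that passed the test. Cdk4 (ENSMUSG00000006728, chromosome 10, 127063534 to 127067920, plus strand) measured 72873, 54924 and 47118 in control libraries 1 to 3 and 51582, 51230 and 53846 in sponge libraries 1 to 3. The sponge values were close together and lay within the range of the controls, whose spread came mostly from control library 1. The log2 fold change was −0.14 ± 0.17 (95% interval −0.53 to 0.26; limma adjusted p = 0.925). Leaving out control library 1 gave 0.04 ± 0.09, on the other side of 0. Cdk6 (ENSMUSG00000040274, chromosome 5, 3341485 to 3531008, plus strand) measured 12337, 14537 and 17161 in the controls and 12327, 14218 and 16593 in the sponge libraries. The sponge values and the control values covered nearly the same range. Its log2 fold change was −0.03 ± 0.17 (95% interval −0.41 to 0.36; adjusted p = 0.979), and −0.15 ± 0.12 without control library 1.

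In the Rb family, the estimates of Rb1 and Rbl1 depended on whether control library 1 was included. Rb1 (ENSMUSG00000022105, chromosome 14, 73183673 to 73325822, minus strand), the retinoblastoma protein that holds activating E2F factors, measured 10689, 16507 and 17150 in control libraries 1 to 3. In sponge libraries 1 to 3 it measured 15907, 13766 and 12908. Control library 1 was the lowest of the 6 and the other 2 controls were the highest. The log2 fold change was −0.03 ± 0.20 (95% interval −0.49 to 0.43; limma adjusted p = 0.979). Without control library 1 it was −0.25 ± 0.09 (95% interval −0.46 to −0.04; limma, adjusted p = 0.645), and the 3 sponge values then lay below both controls. In that fit 24.6% of all tested genes had groups that did not overlap, 11.2% with the sponge lower.

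Rbl1 (ENSMUSG00000027641, chromosome 2, 157145893 to 157204534, minus strand), which pairs mostly with repressor E2F factors in dividing cells, measured 2697, 4633 and 4441 in control libraries 1 to 3. It measured 4522, 4278 and 4793 in sponge libraries 1 to 3, all close to control libraries 2 and 3. The log2 fold change of 0.25 ± 0.21 (95% interval −0.25 to 0.74; limma adjusted p = 0.925) was −0.0031 ± 0.09 without control library 1, so the estimate rested on that library. Rbl2 (ENSMUSG00000031666, chromosome 8, 91070057 to 91123844, plus strand), the pocket protein known from resting and differentiated cells, measured 5638, 7058 and 6827 in the controls and 8734, 6744 and 7275 in the sponge libraries. Sponge library 1 was the highest and control library 1 the lowest, with the other 4 between 6744 and 7275. Rbl2, with 2 sites, had a log2 fold change of 0.22 ± 0.15 (95% interval −0.12 to 0.56; adjusted p = 0.925), and 0.12 ± 0.11 without control library 1.

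E2f1 and Cdkn1a, an accelerator and a brake of the step into S phase, did not pass the test either. E2f1 (ENSMUSG00000027490, chromosome 2, 154559407 to 154569892, minus strand), whose UTR held 2 sites, measured 4695, 4291 and 3638 in control libraries 1 to 3 and 3621, 3632 and 4019 in sponge libraries 1 to 3. Control libraries 1 and 2 were the highest, and control library 3 lay among the sponge libraries. Its log2 fold change was −0.16 ± 0.14 (95% interval −0.47 to 0.16; limma adjusted p = 0.925), and −0.07 ± 0.10 without control library 1. Cdkn1a (ENSMUSG00000023067, chromosome 17, 29090976 to 29100727, plus strand) had the lowest counts of the 10 genes, 1257, 692 and 661 in the controls and 784, 853 and 834 in the sponge libraries. The sponge libraries lay between control library 1 and the other 2 controls. The log2 fold change was −0.0152 ± 0.26 (95% interval −0.62 to 0.59; adjusted p = 0.994). Without control library 1 it was 0.28 ± 0.15 (limma, adjusted p = 0.677). The sponge values then lay above both controls, as in 13.4% of all tested genes in that fit.

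**Figure D3:**
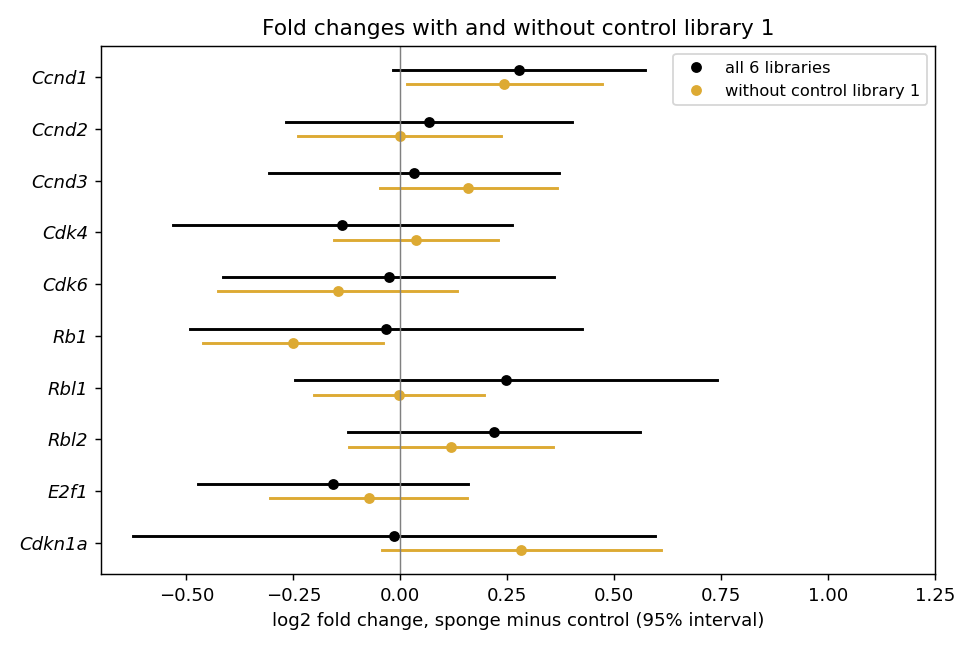
Log2 fold change of each gene, sponge minus control, with its 95% interval from limma, over all 6 libraries (black) and without control library 1 (yellow). Over all libraries every interval includes 0, and without control library 1 those of Ccnd1 (0.24) and Rb1 (−0.25) do not, before adjustment for the genes tested.

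Genes with and without a site had overlapping ranges of fold change. The 7 genes with a seed match had log2 fold changes from −0.16 to 0.28 with a median of 0.07, and the 3 without one ran from −0.14 to 0.03 with a median of −0.03. Without control library 1 the medians were −0.0016 and 0.04. The authors' deposited table lists 9 of the 10 genes, all but Cdkn1a. Its genes number 10812 and have means of at least 1003, although 11394 genes of the count table lie above that mean, so the mean is not the only filter on it. The authors' deposited table gives Ccnd1 a log2 fold change of 0.2786 with p = 0.0949, the smallest of the 9, and no adjusted p of the 9 is below 0.9954. Over all its genes, the authors' deposited table has 1 with an adjusted p under 0.05 and 2.05% with an unadjusted p under 0.05.

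Levels of the 10 genes were compared per kilobase of merged exon, as the mean normalised count per kilobase over the 6 libraries. Cdk4 stood highest at 17009 ± 2782 (SD, n = 6), above 99.1% of tested genes, and Ccnd2 followed at 8866 ± 922, with no overlap between their ranges. Rb1 (2409 ± 411) and Ccnd1 (2280 ± 310) came next and overlapped each other. E2f1 (1263 ± 140), Cdk6 (1039 ± 146), Rbl2 (932 ± 133), Rbl1 (705 ± 128) and Ccnd3 (693 ± 77.8) formed a run in which each overlapped its neighbour. Cdkn1a was the lowest at 238 ± 60.5, below the range of Ccnd3. Per length of the longest transcript instead, Ccnd3 moved from the ninth to the fifth place (1575), and Cdk4, Ccnd2, Rb1 and Ccnd1 kept the first places in this order.

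**Figure D4:**
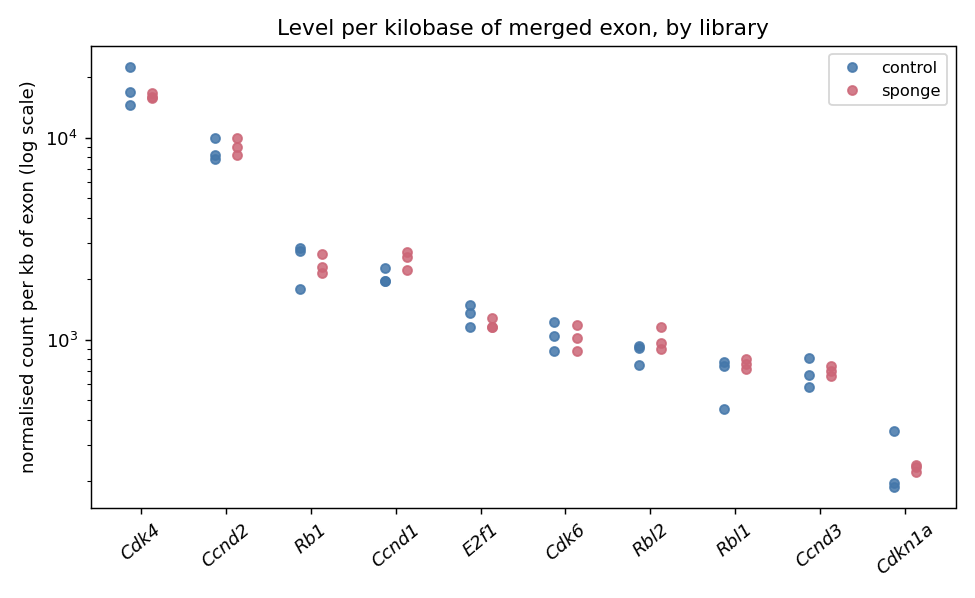
Normalised count per kilobase of merged exon (log axis) of the 10 genes in each control and sponge library, ordered by the mean. Cdk4 and Ccnd2 lie above the other genes in all 6 libraries, and Cdkn1a lies lowest.

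Within each family 1 gene made up most of the level in every library. Of the summed level of the D cyclins per kilobase, Ccnd2 made up 71.8% to 77.2%, Ccnd1 17.6% to 22.4% and Ccnd3 5.19% to 7.65%. The share of Ccnd1 was 18.5%, 17.6% and 18.1% in control libraries 1 to 3 and 18.7%, 22.4% and 20.2% in sponge libraries 1 to 3, without overlap. Cdk4 exceeded Cdk6 by 11.8 to 25.4 times per kilobase. Rb1 made up 54.9% to 63.4% of the Rb family, with 59.8%, 61.7% and 63.4% in control libraries 1 to 3 and 58.1%, 58.8% and 54.9% in sponge libraries 1 to 3, again without overlap. Both shares were singled out after their values were seen and were not tested. The shares of the other members of the 3 families overlapped between the groups. The normalised counts of Ccnd1 and Rb1 themselves overlapped between the groups, while 11.2% of all tested genes had counts that did not. That percentage is for the counts of single genes, and none was computed for shares within families.

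The cell type markers place these levels in a mixture of cells. No marker was at 0 in any library. The neuronal list of 9 genes, led by Dcx, a microtubule protein of young neurons, summed to 582060 to 635250 normalised counts in the controls and 605090 to 620040 in the sponge libraries. Radial glia and intermediate progenitor markers (11 genes, led by the glutamate transporter Slc1a3) summed to 260180 to 297180 and 277040 to 343790. Their log2 fold changes had a median of 0.03, with 6 above 0 and 5 below. They ran from −0.07 to 0.33, the highest being that of Slc1a3, and none passed the adjusted threshold. Proliferation markers (6 genes, led by the topoisomerase Top2a) summed to 57255 to 73481 in the controls and 64336 to 78420 in the sponge libraries, so proliferation markers were detected in every library labelled as neurons. Astrocyte markers (5 genes) summed to 81945 to 144100 and 96458 to 144780. Their log2 fold changes ran from −0.45 to 0.81, with 3 above 0 and 2 below, and none passed the adjusted threshold. Endothelial and mural markers (7 genes) summed to 8704 to 13892 and 8824 to 13562, and microglial markers (6 genes) to 1682 to 3723 and 1638 to 2131. In such bulk libraries, fewer cells of a type and less RNA per cell cannot be told apart.

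The cyclins Ccnd2 and Ccnd1 ordered the libraries much as some marker lists did. These comparisons were picked after the values of 40 pairs of gene and marker list were seen. Ccnd2 ranked the 6 libraries exactly as the summed proliferation markers did (Spearman's rho 1.0, n = 6), from control library 1 at the bottom to control library 2 and sponge library 3 at the top. Rbl1 followed the same markers with a rho of 0.943, and the neuronal list with a rho of 0.886. The rho of Ccnd2 with the neuronal list was also 0.943, so its order was not particular to proliferation. Ccnd1 ranked the libraries much as the 5 markers of oligodendrocyte precursors did (rho 0.886, n = 6). Both had higher means in the sponge group, so this rho mixes the group difference with variation between libraries. These 5 markers, led by the transcription factor Olig1, summed to 84935 to 104810 in the controls and 111800 to 125450 in the sponge libraries. All 5 estimates were above 0 (median log2 fold change 0.36, and 0.24 without control library 1). Of the 5, 3 had an unadjusted p under 0.05, where 1.58% of all genes were higher at that p. None passed the adjusted threshold (limma, smallest adjusted p = 0.925). Without control library 1, medians above that of the precursor list were 0.62 for erythroid, 0.61 for endothelial and mural, and 0.34 for astrocyte markers. Over all libraries the medians of the same lists were −0.52, 0.20 and 0.12. The remaining marker lists had lower medians than the precursor list in both fits. The libraries share their normalisation, and the part of precursor cells in the values of Ccnd1 was not tested.

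**Figure D5:**
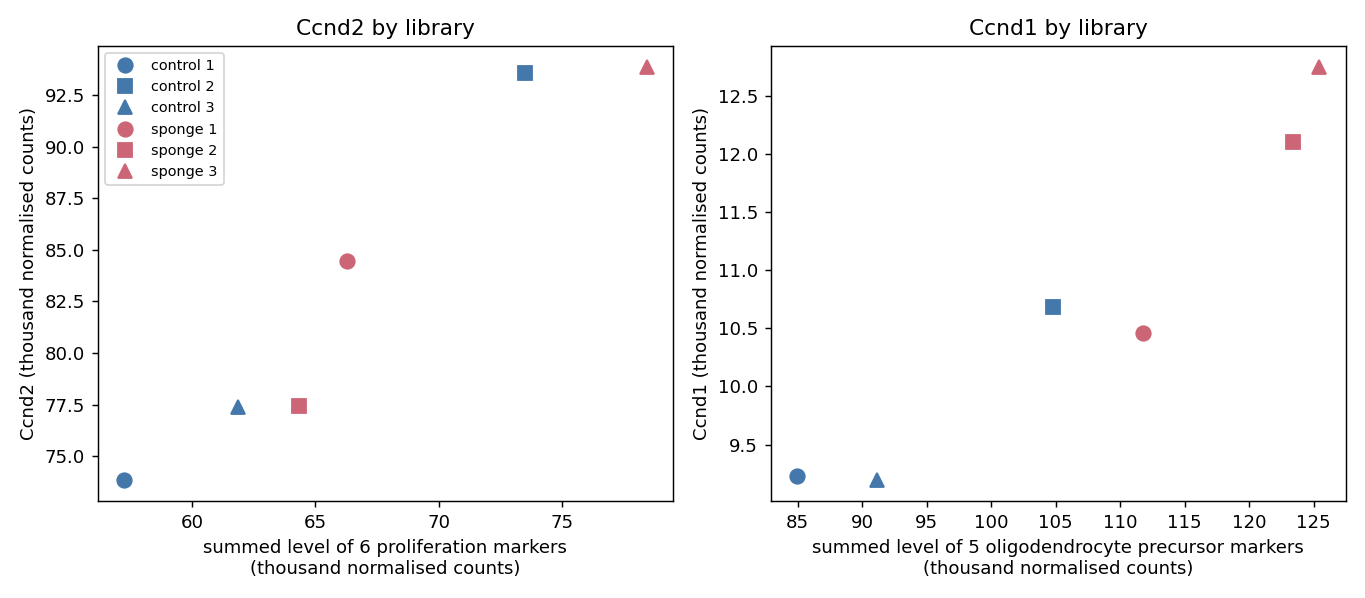
Normalised counts (axes scaled as labelled) of Ccnd2 against the summed level of 6 proliferation markers (left) and of Ccnd1 against that of 5 oligodendrocyte precursor markers (right), 1 point per library, on axes that do not start at 0. Ccnd2 keeps the order of the markers in all 6 libraries, and the 3 sponge libraries have the highest precursor sums.

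The wider G1 pathway showed no change that passed the test. Of 52 genes in 6 lists, limma called 0 at an adjusted p under 0.05 and 0 at an unadjusted p under 0.05, and the smallest unadjusted p was 0.0936. The groups did not overlap in 4 of the 52 (7.69%, against 11.2% of all tested genes), and the median log2 fold change was −0.03 (0.0152 without control library 1).

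The E2F family and its partners (9 genes) had a median of 0.12, with 7 estimates above 0 and 2 below. Leaving out control library 1 brought the median to 0.0152, with 5 above and 4 below. Tfdp2, which dimerises with E2F factors to bind DNA, measured 7116 ± 1913 in the controls and 8707 ± 298 in the sponge libraries (SD, n = 3 each). Its groups did not overlap, and its log2 fold change was 0.33 ± 0.21 (SE), or 0.08 when control library 1 was left out. E2f3, an activator like E2f1, had 0.22 ± 0.15, and 0.11 without control library 1. Cyclins E and A with their kinase (6 genes), which act after the D cyclins, had a median of −0.03 (−0.07 without control library 1), with 1 estimate above 0 and 5 below in both fits. Ccne2 was at 2428 ± 74.6 and 2134 ± 102 (log2 fold change −0.19 ± 0.12, and −0.17 without control library 1), and its relative Ccne1 at −0.16 ± 0.21 (−0.06 without that library). Both groups of Ccne2 were tight and did not overlap, but the adjusted p in limma was 0.925.

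The other CDK inhibitors (6 genes) had a median of −0.07, with 2 estimates above 0 and 4 below. Leaving out control library 1 turned the median to 0.13 over the 5 still above the filter, with 3 above and 2 below. The INK4 inhibitors Cdkn2d and Cdkn2c, which block CDK4 and CDK6, were at −0.22 ± 0.19 and 0.08 ± 0.13 (−0.0221 and 0.13 without control library 1). MuvB and Myb partners of the Rb family (7 genes) had a median of −0.08 with 1 estimate above 0 and 6 below, and of −0.0250 with 3 above and 4 below when control library 1 was left out. Lin54, the DNA-binding subunit of MuvB, measured 2541 ± 388 and 3067 ± 86.7 (log2 fold change 0.28 ± 0.15, and 0.15 without control library 1), and the subunit Lin37 was at −0.20 ± 0.19 (−0.0250 without that library). The groups did not overlap for Lin54.

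Genes for the activation and turnover of D cyclin kinases (8 genes) had a median of −0.0022, with 4 estimates on each side, and of −0.03, with 3 above 0 and 5 below, when control library 1 was left out. Fbxo31, an F-box protein known to target cyclin D1 for degradation, measured 7091 ± 1013 in the controls and 5930 ± 85.4 in the sponge libraries (log2 fold change −0.25 ± 0.13, and −0.13 without control library 1). Ccnh, the cyclin of the CDK-activating kinase, was at −0.16 ± 0.12, and at −0.07 without that library. E2F target genes of S phase (16 genes) had a median of −0.03, with estimates from −0.19 to 0.12, 7 above 0 and 9 below. Leaving out control library 1 turned the median to 0.06, with 13 above and 3 below. The helicase subunit Mcm7 was at −0.14 ± 0.14 and the licensing factor Cdt1 at −0.19 ± 0.21, and without control library 1 they were at −0.0127 and −0.0082.

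The counting of these genes has a limit that the files do not settle. In the annotation, 8 of the 10 genes share 273 to 1100 exon bases with a gene on the opposite strand, all but Rbl1 and E2f1. The longest overlap was that of Ccnd1 with LTO1, 1100 bases, a gene with a mean of 6666 normalised counts. The library kit marks strand per the labels, while the strand setting of the counting is not given in the sources used here, so reads from such overlaps may have been assigned to either gene.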

How the data were processed

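Messenger RNA libraries were made with a stranded, ligation-based kit per the labels. For the authors' processing, the submitters' processing notes name STAR 2.7.6a, DESeq2 1.30.1 and the builds mm10 and GRCm38. The deposited signal values are linear normalised counts, scaled by the authors with 1 factor per library. Per the file headers, the authors' second deposited table holds each gene's mean signal, its log2 fold change and its raw and adjusted p-value. In each column all values were whole multiples of 1 step within 0.01, and the sum of these multiples is the depth. No count model was fitted.

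Libraries were grouped by title, 3 in each group. All 22479 genes with a mean of at least 10 were fitted on log2(value + 1), which understates changes of low genes, with limma 3.58.1 in R 4.3.3 (trend and robust empirical Bayes, two-sided, Benjamini-Hochberg over all genes, threshold 0.05). The fit was tested on simulated data with changes larger than the estimates of the 10 genes, so that test does not show whether changes of their size would be found. Intervals are at 95% and not adjusted for the number of genes. Exon lengths, 3′ UTRs of at least 50 bases and coordinates come from GENCODE M21, where 35389 of the 35510 identifiers were found.

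The genes and lists were chosen with earlier results of these data known. All 10 genes are described, and of each of the 6 other pathway lists the genes past the threshold and the 2 of smallest p. Of the marker lists, the gene of highest level is named for the neuronal, progenitor, proliferation and oligodendrocyte precursor lists only. Lists are described by counts and medians, without a set test. Alternatives changed the pseudocount, filter, scaling, variance model, replicate block and libraries.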

Additional observations from a re-analysis of the deposited data

How the results depend on the processing

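Of the 10 genes, 0 passed the adjusted threshold in limma under any alternative run, and neither did any of the 52 other pathway genes. The smallest adjusted p among the 10 ran from 0.559 with array quality weights, an alternative chosen after seeing the data, to 0.999 without sponge library 2. Over all genes tested the calls rose from 0 to 4 with these weights and lay between 0 and 2 when 1 library was left out, the 2 without control library 1. Genes at an unadjusted p under 0.05 numbered 650, against 1690, 819 and 1191 without control library 1, 2 or 3, 357, 363 and 316 without sponge library 1, 2 or 3, 1075 with no filter and 1744 with the weights. Among the 10, Ccnd1 and Rb1 reached that p without control library 1 and with the weights, and Ccnd1 also without sponge library 1 and after removal of the transcript length trend, chosen after seeing the data.

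The estimates of Ccnd1 (0.22 to 0.36 with 1 library left out), Rbl2 (0.11 to 0.30) and E2f1 (−0.26 to −0.07) kept their direction in every fit run. With 1 library left out, the estimate changed sign for Ccnd2 (−0.0051 to 0.17), Ccnd3 (−0.0818 to 0.16), Cdk4 (−0.28 to 0.0374), Cdk6 (−0.15 to 0.0920), Rb1 (−0.25 to 0.0901), Rbl1 (−0.0031 to 0.39) and Cdkn1a (−0.18 to 0.28). With upper quartile scaling Cdk6 was at 0.0017 and Cdkn1a at 0.014, with the weights Ccnd2 was at −0.076 and Cdkn1a at 0.25, and with the length trend removed they were at −0.056 and 0.053, while Cdk6 moved to −0.28 (limma, adjusted p = 0.924). The cause was not tested. Scalings moved the median of all genes to −0.0115 (TMM) and 0.03 (upper quartile).

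The deviations of same-numbered libraries from their group means had correlations of 0.0096, 0.0054 and −0.0532. Control library 1 weighs on the mean of its group, so these values cannot decide whether the numbers pair the libraries. With a replicate block 0 genes were called, as without it. The planned count tests on recovered reads were not run. Without replicates beyond 3, the median 95% half-width over all genes was 0.56, which limits the size of a change that can be seen.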
